A study of Mus musculus with 8 samples.

Results

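The T cell receptor complex and its first signalling steps were followed in splenic CD8+ T cells and natural killer (NK) cells of mice lacking TYK2, a Janus kinase that serves type I interferon and IL-12 receptors. The set was chosen by name and holds 9 of the 54232 gene IDs counted: the receptor chains *Cd3d*, *Cd3e*, *Cd3g* and *Cd247*, the coreceptor chains *Cd8a* and *Cd8b1*, the kinases *Lck* and *Zap70*, and the adaptor *Lat*. The question was which of these parts NK cells share. The groups were 3 libraries of CD8+ T cells and 3 libraries of NK cells, each under homeostatic conditions with no treatment, from mice labelled as *Tyk2* knockout on a C57BL/6 background (C57BL/6N in the study's methods) and aged 8 to 12 weeks. The knockout is germline, so every cell of these mice carries it, and both groups share it. Each library came from 3 pooled spleens, and the cells were purified by FACS, the NK cells as NK1.1+ cells and the T cells by CD8. Whether cells with surface CD3ε were gated out of the homeostatic NK cells is not given in the sources used here. The *WT* CD8+ T cells were not analysed here, since their 3 count columns could not be assigned to the 2 samples listed, so no value below bears on the effect of TYK2.

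A T cell recognises a peptide on an MHC molecule through the α and β chains of its receptor, which have almost no intracellular part. The signal is passed on by the CD3γ, CD3δ and CD3ε chains and by the ζ chain encoded by *Cd247*, whose immunoreceptor tyrosine-based activation motifs (ITAM) are phosphorylated by LCK, a Src family kinase that the CD8 coreceptor carries to the receptor. ZAP70 then docks on the phosphorylated motifs and phosphorylates the membrane adaptor LAT, on which phospholipase Cγ and further adaptors gather. NK cells carry no rearranged T cell receptor, and their activating receptors signal through ζ, the FcεRI γ chain (*Fcer1g*) and DAP12 (*Tyrobp*), with SYK beside ZAP70 as the kinase that docks.

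The CD8+ T cell libraries held 20957384 to 26144478 counts on 12893 to 14042 genes, and the NK cell libraries held 32848432 to 38573550 counts on 17224 to 17373 genes. *Tyk2* itself had 105, 919 and 554 raw counts in CD8+ T cells, against 3864, 4245 and 3207 in NK cells, and with no *WT* library beside them these counts do not check the genotype. The labelled cell types carried their defining genes. *Ncr1* and *Klra4* were at 0 in every CD8+ T cell library, and the summed level of 5 NK cell markers was 524 to 2011 normalised counts there against 227155 to 270643 in NK cells. The summed level of 5 B cell markers was 6661, 4755 and 941 normalised counts in CD8+ T cell libraries 1, 2 and 3, most of it from *Cd79b*, against 246 to 1826 in NK cells. *Ms4a1* had 405 counts in CD8+ T cell library 1, 6 in library 2 and 0 in library 3, whereas *Cd22* was higher in NK cells (345, 364 and 266 counts against 1, 1 and 0, adjusted p = 0.0239 by edgeR). No member of the set is a B cell marker.

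*Cd3d*, *Cd3g* and *Lat* set the cell types apart, whereas no difference was detectable for the kinases. Both coreceptor chains also did so, but the T cells were sorted by CD8, so this was given by the sort. With edgeR's quasi-likelihood test over 14062 genes, 5 of the 9 members were lower in NK cells than in CD8+ T cells (*Cd3d*, *Cd3g*, *Cd8a*, *Cd8b1* and *Lat*), none was higher there, also at an unadjusted p below 0.05 or with DESeq2, and *Cd3e*, *Cd247*, *Lck* and *Zap70* did not pass an adjusted p of 0.05. The calls of *Cd8a* and *Cd8b1* follow from the sort, as does their place among the 7 members without overlap given below. These 5 were also called without CD8+ T cell library 1 or without library 2, the libraries with the most B cell marker reads. Among all genes tested, 5.14% were called in that direction and 6.24% in the other. For 7 of the 9 members the 3 CD8+ T cell libraries lay wholly above the 3 NK cell libraries, *Lck* and *Zap70* being the members whose libraries overlapped, while libraries did not overlap in one direction or the other for 41.6% of all genes tested. The median log2 fold change of the members was -1.64, also with *Cd8b1* at its bound, against 0.10 for all genes tested. In bulk RNA a gene expressed by fewer cells and a gene with less RNA per cell cannot be told apart, and replicates differ as pools of mice. Values are counts normalised with TMM factors to the mean effective library size, and means are given with the SD over n = 3 libraries.

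**Figure D1:**
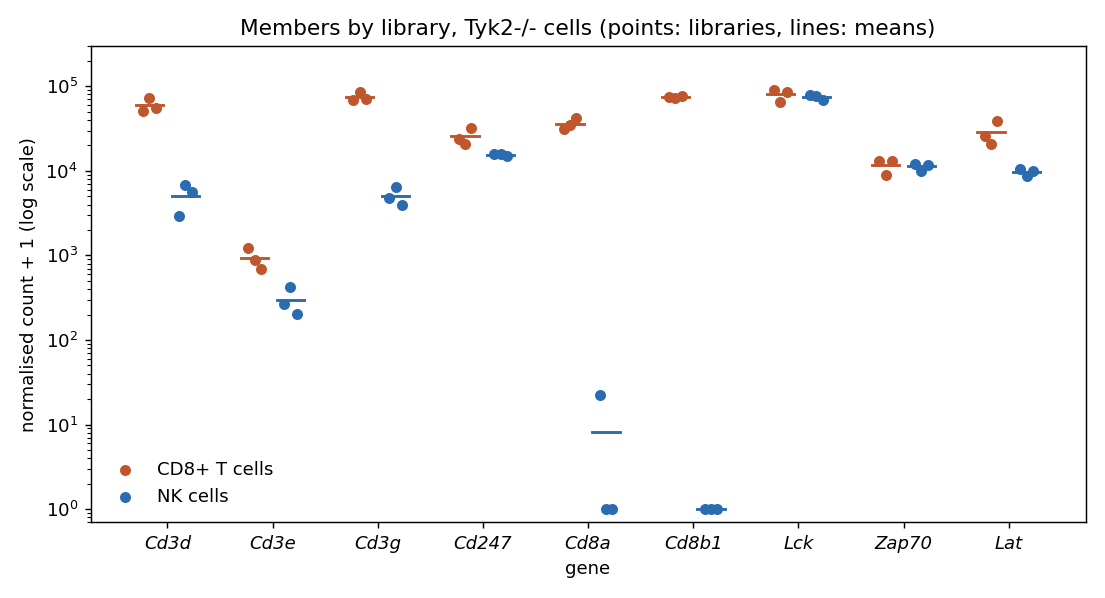
Normalised counts plus 1 of the 9 members on a log axis, with a point for each library and a line at each mean, CD8+ T cells in orange and NK cells in blue. The points of *Lck* and *Zap70* overlap between the cell types, the means of *Cd3d* are 11.7-fold and those of *Cd3g* 15.0-fold apart, and all NK cell points of *Cd8b1* lie at 0 counts.

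The CD3 chains lie together on chromosome 9 of GRCm38. *Cd3g* (ENSMUSG00000002033, 44969572 to 44980431, minus strand) and *Cd3d* (ENSMUSG00000032094, 44981786 to 44987339, plus strand) point away from each other with 1355 bases between their annotated starts, and *Cd3e* (ENSMUSG00000032093, 44998740 to 45009627, minus strand) ends 11401 bases beyond *Cd3d*, so that the cluster spans 40056 bases. The 250 bases before the RefSeq start of each CD3 gene are shown, together with those of *Cd247* and *Zap70*, both on chromosome 1. *Cd3d* and *Cd3g* passed the test, and *Cd3e*, *Cd247* and *Zap70* did not. The NK cell libraries lay below all CD8+ T cell libraries for each of these genes except *Zap70*. Sequences are from GRCm38.p6 by RefSeq and run 5′ to 3′ on the gene's strand, at chr9:44980432-44980681 (minus) for *Cd3g*, chr9:44981536-44981785 (plus) for *Cd3d*, chr9:45009612-45009861 (minus) for *Cd3e*, chr1:165788431-165788680 (plus) for *Cd247* and chr1:36761548-36761797 (plus) for the first of the 3 *Zap70* starts. Capitals mark matches on either strand of the ETS core GGAAG or the E-box CAGGTG (read as CTTCC or CACCTG on the other strand), and no 2 matches overlap.
*Cd3g*: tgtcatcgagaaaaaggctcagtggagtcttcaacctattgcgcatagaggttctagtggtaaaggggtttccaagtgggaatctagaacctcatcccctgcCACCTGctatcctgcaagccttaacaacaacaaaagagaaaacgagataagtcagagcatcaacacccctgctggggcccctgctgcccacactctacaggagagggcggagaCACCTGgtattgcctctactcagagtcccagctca
*Cd3d*: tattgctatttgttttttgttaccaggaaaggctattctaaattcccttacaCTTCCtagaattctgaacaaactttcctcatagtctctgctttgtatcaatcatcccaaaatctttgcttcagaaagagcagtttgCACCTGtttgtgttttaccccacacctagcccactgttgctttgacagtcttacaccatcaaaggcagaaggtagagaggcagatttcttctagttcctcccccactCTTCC
*Cd3e*: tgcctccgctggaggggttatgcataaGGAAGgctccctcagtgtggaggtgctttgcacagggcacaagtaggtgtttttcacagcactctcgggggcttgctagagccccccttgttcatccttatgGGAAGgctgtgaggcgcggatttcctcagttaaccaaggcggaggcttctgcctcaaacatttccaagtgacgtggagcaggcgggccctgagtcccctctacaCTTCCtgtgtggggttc
*Cd247*: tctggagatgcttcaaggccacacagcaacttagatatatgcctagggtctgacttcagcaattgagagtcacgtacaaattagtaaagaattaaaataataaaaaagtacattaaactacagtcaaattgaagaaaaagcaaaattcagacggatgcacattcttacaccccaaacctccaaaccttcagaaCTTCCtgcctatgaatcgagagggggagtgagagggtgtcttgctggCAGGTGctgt
*Zap70*: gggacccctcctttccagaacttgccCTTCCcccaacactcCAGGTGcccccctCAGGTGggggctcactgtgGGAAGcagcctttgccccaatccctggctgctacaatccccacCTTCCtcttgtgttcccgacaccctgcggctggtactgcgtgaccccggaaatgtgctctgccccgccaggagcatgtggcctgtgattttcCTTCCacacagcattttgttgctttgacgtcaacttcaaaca

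None of these 5 windows held TATAAA, the RUNX motif TGTGGT or the E-box CAGCTG, which occurred on either strand in 12.4%, 14% and 13% of all 32851 windows of this length. The E-box CAGGTG, found in 17.2% of all windows, occurred 2 times before *Cd3g* and before *Zap70*, 1 time before *Cd3d* and before *Cd247*, and not before *Cd3e*. GGAAG occurred before *Cd3d*, *Cd3e*, *Cd247* and *Zap70* and not before *Cd3g*, and 64.1% of all windows held it. Windows were matched for 8 of the 9 members, the exception being *Cd8b1*. These are matches of letters in short windows and not sites.

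*Cd3g*, which encodes CD3γ, showed the clearest difference among the receptor chains. It had 69190.5, 86399 and 69812 normalised counts in CD8+ T cells, against 4748, 6364 and 3899 in NK cells. All NK cell libraries thus held *Cd3g* reads, at 6.66% of the mean in CD8+ T cells (5004 ± 1252 against 75134 ± 9761, SD, n = 3), and the log2 fold change was -3.91 ± 0.24 (SE, edgeR quasi-likelihood test, adjusted p = 0.00044). *Cd3d*, which encodes CD3δ, had 51090.3, 72431 and 54908 normalised counts in CD8+ T cells, against 2898, 6756 and 5655 in NK cells. NK cell library 1 was the lowest, and the NK cell mean was 8.58% of that in CD8+ T cells (log2 fold change -3.54 ± 0.36, adjusted p = 0.0024 by edgeR). Both calls were kept when any 1 library was left out.

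*Cd3e*, which encodes the CD3ε chain that the usual staining antibody binds, was the least abundant of the 3 and had the smallest fold change. It had 1234, 889 and 688 normalised counts in CD8+ T cells, against 269, 426 and 204 in NK cells. The libraries did not overlap, and the NK cell mean was 32.0% of that in CD8+ T cells. The log2 fold change of -1.64 ± 0.60 did not pass the adjusted threshold in edgeR (adjusted p = 0.12, unadjusted 95% interval -3.09 to -0.20) and passed it with DESeq2's Wald test (adjusted p = 0.0187). Of the 1462 exon bases of *Cd3e*, 135 are shared with the antisense gene *Gm48719*, and whether strand was used in counting is not stated.

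Reads on CD3 genes in the NK cell libraries were set beside those of other T cell genes. *Trac*, the constant region of the receptor α chain, was at 0.987% of its CD8+ T cell mean in NK cells, with raw counts of 308, 441 and 419 there. The constant regions of the β chain were higher, *Trbc2* at 12.0% and *Trbc1* at 65.9% of their CD8+ T cell means. *Cd8b1* and *Cd6*, the latter a receptor of mature T cells, had 0 counts in every NK cell library, and *Cd5* had 0, 0 and 2. The genes *Cd3d*, *Cd3g* and *Cd3e* were thus at 6.66% to 32.0% of their CD8+ T cell level, above the share of *Trac* and below that of *Trbc1*. The share of *Trbc2* lay above those of *Cd3d* and *Cd3g* and below that of *Cd3e*. How reads split between *Trbc1* and *Trbc2* is uncertain. In the NK cell libraries the CD8β chain was not detected, and the CD4+ T cell markers *Cd4*, *Foxp3* and *Cd40lg* summed to 16.2 to 36.0 normalised counts. Of the genes of γδ T cells, *Trdc* had 1350, 3027 and 2619 raw counts in NK cells and 0, 2 and 1 in CD8+ T cells. *Tcrg-C4* had 2622, 1802 and 1404 in NK cells and 1, 137 and 0 in CD8+ T cells, with no call by edgeR (log2 fold change 4.98 ± 2.09, adjusted p = 0.17). It was called with DESeq2 (adjusted p = 0.0109) and, in edgeR, without CD8+ T cell library 2 (log2 fold change 11.38 ± 1.20, adjusted p = 0.0066). Other genes of these cells were low in NK cells. *Tcrg-C2* had 3, 12 and 2 counts there and 177, 0 and 0 in CD8+ T cells, *Tcrg-C1* had 1, 0 and 36 there, and *Zbtb16*, a factor of innate-like T cells, had 46, 105 and 9, both of these at 0 in CD8+ T cells. How far other cells in the NK cell gate account for the CD3 reads was not tested.

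*Cd247* (ENSMUSG00000005763, chromosome 1, 165788681 to 165877277, plus strand) encodes the ζ chain, which serves the T cell receptor and also the NK cell receptor NKp46. It had 23776, 20630.5 and 32337 normalised counts in CD8+ T cells, against 15719.8, 15626 and 14898 in NK cells. The NK cell libraries were close to one another and each lay below the lowest CD8+ T cell library, at 60.3% of the CD8+ T cell mean. This difference was not called by edgeR (log2 fold change -0.73 ± 0.20, adjusted p = 0.063). It was called with DESeq2 (-0.67 ± 0.25, adjusted p = 0.0327) and, in edgeR, without CD8+ T cell library 2 (-0.83 ± 0.16, adjusted p = 0.0336). *Cd247* shares 3124 of its 4558 exon bases with *Pou2f1* and *Gm16565*, so that reads of these genes may have been added or lost in counting.

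The coreceptor separated the cell types completely, and CD8 is also what the T cells were sorted on. *Cd8b1* (ENSMUSG00000053044, chromosome 6, 71322788 to 71337494), which encodes the CD8β chain, had 60518, 60044 and 80266 raw counts in CD8+ T cells and 0 in all NK cell libraries. Against a floor of 3 counts per library it was at least 27722-fold higher in CD8+ T cells (adjusted p = 0.00017 by edgeR). *Cd8a* (ENSMUSG00000053977, 71373427 to 71379173), 35933 bases downstream of *Cd8b1* on the same strand, encodes the CD8α chain, which CD8αα homodimers carry without CD8β. It had 25714, 28296 and 43635 raw counts in CD8+ T cells, against 22, 0 and 0 in NK cells, so that its few reads came from NK cell library 1 alone (adjusted p = 0.0055 by edgeR). Within CD8+ T cells the ratio of *Cd8a* to *Cd8b1* per kilobase of exon was 0.201, 0.223 and 0.257 in libraries 1, 2 and 3.

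Both kinases were abundant in NK cells, and no difference between the cell types was detectable. *Lck* (ENSMUSG00000000409, chromosome 4, 129548344 to 129573641, minus strand), the Src family kinase that starts the cascade, had 91204, 64558 and 85449.5 normalised counts in CD8+ T cells, against 78742, 77794 and 68706 in NK cells. The groups overlapped, with the lowest value of all in CD8+ T cell library 2, and the NK cell mean was 93.4% of that in CD8+ T cells. The log2 fold change was -0.10 ± 0.17 (adjusted p = 0.74 by edgeR), with a 95% interval of -0.50 to 0.30, which leaves room for differences in either direction up to the size of its ends. *Zap70* (ENSMUSG00000026117, chromosome 1, 36761798 to 36782818, plus strand), the kinase that docks on phosphorylated ITAM, had 13148, 8857 and 13004 normalised counts in CD8+ T cells, against 12015, 9960.3 and 11878 in NK cells. CD8+ T cell library 2 was again the lowest, and the NK cell mean was 96.7% of the other (log2 fold change -0.05 ± 0.21, 95% interval -0.56 to 0.46, adjusted p = 0.91 by edgeR). The sign of neither fold change was stable across the other settings and left-out libraries, so no direction is given for either gene.

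*Lat* (ENSMUSG00000030742, chromosome 7, 126363824 to 126369570, minus strand), the adaptor that ZAP70 phosphorylates, was lower in NK cells but far from absent. It had 25945, 20849 and 38990.5 normalised counts in CD8+ T cells, against 10621, 8766 and 9874 in NK cells. CD8+ T cell library 3 was the highest, and the NK cell libraries lay below all of CD8+ T cells at 34.1% of their mean. The log2 fold change was -1.55 ± 0.26 (adjusted p = 0.0148 by edgeR). The call was lost without NK cell library 1 (adjusted p = 0.0721), library 2 (adjusted p = 0.0813) or library 3 (adjusted p = 0.0816), while the fold change stayed between -1.26 and -1.70 over all alternatives.

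**Figure D2:**
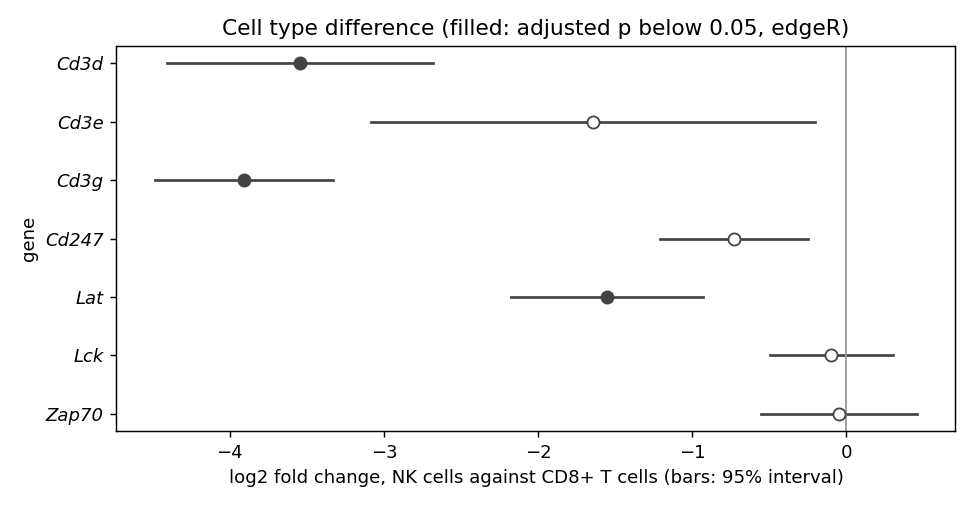
Log2 fold change of NK cells against CD8+ T cells for the 7 members with reads in all libraries, with unadjusted 95% intervals as bars and filled points for an adjusted p below 0.05. *Cd3g*, at -3.91, and *Cd3d*, at -3.54, lie farthest from 0, and the intervals of *Lck* and *Zap70* include 0.

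Divided by exon length, the members covered a wide range within each cell type. In reads per kilobase of exon, scaled to library size (RPKM), *Cd3g* was highest in CD8+ T cells at 2541 ± 330.1, followed by *Cd8b1* at 1752 ± 51.8, *Cd3d* at 1272 ± 243, *Lck* at 1200.5 ± 209 and *Lat* at 795 ± 260.0 (SD, n = 3). Below them came *Cd8a* at 399 ± 61.0, *Cd247* at 194 ± 46.0, *Zap70* at 180 ± 37.5 and *Cd3e* at 22.2 ± 6.54. *Cd3d* and *Lck*, *Lck* and *Lat*, and *Cd247* and *Zap70* had overlapping libraries, so the order within these pairs is not resolved. In NK cells the order was led by *Lck* at 1121 ± 82.7 RPKM and *Lat* at 271 ± 25.9, ahead of *Zap70* at 174 ± 17.7, *Cd3g* at 169 ± 42.4, *Cd247* at 117 ± 3.41 and *Cd3d* at 109 ± 42.5. *Zap70* and *Cd3g*, and *Cd247* and *Cd3d*, overlapped there, and *Cd3e* followed at 7.09 ± 2.71 RPKM, above the coreceptor. With only the exon bases that no other gene shares, a setting added after seeing the data, *Cd247* came to 617 RPKM in CD8+ T cells, against 372 in NK cells, so its place in both orders depends on the annotation.

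**Figure D3:**
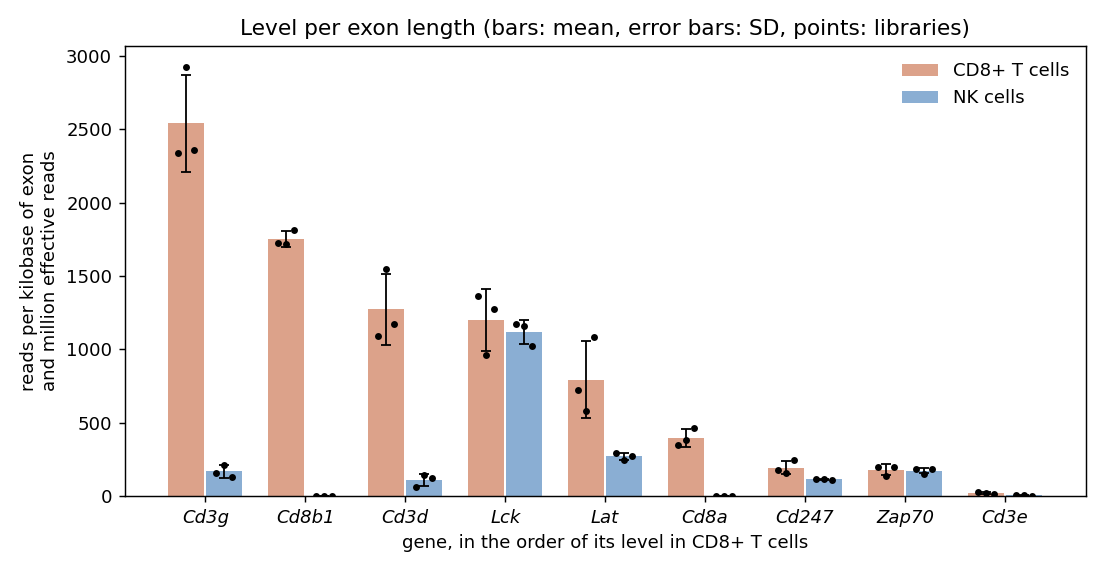
Level per exon length (RPKM) of each member, with bars for the mean of 3 libraries, error bars for the SD and points for the libraries, genes ordered by their level in CD8+ T cells. *Cd3g* stands highest in CD8+ T cells at 2541 RPKM and *Lck* in NK cells at 1121 RPKM, and *Cd3e* is low in both.

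*Cd3e* stood apart from its neighbours in the complex, although one CD3ε chain pairs with each CD3γ and each CD3δ chain in the receptor. In CD8+ T cells *Cd3d* exceeded *Cd3e* per kilobase by 37.4, 73.6 and 72.1 times and *Cd3g* exceeded it by 80.1, 139 and 145 times, with library 1 lowest in both. Reads on the 135 exon bases that *Cd3e* shares with *Gm48719* may have been lost in counting. With only the bases that no other gene shares, a setting added after seeing the data, *Cd3e* came to 24.4 RPKM in CD8+ T cells, against 22.2 with all exon bases. RNA levels counted in this way are not protein levels.

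Each signalling member has a partner or an alternative in NK cells, and the ratio within a library does not depend on its scaling. Of 5 ratios compared by a two-sided exact permutation test, none could pass the threshold, because 0.1 is the smallest p that 3 against 3 libraries can give, and sizes are given with the Benjamini-Hochberg adjusted p over the 5. *Syk*, the relative of *Zap70*, was at 0 in every library of CD8+ T cells and had 1324, 2360 and 1118 counts in NK cells. The *Zap70* to *Syk* ratio per kilobase was therefore at least 6463 in each CD8+ T cell library, against 25.0, 13.5 and 31.7 in NK cells, so *Zap70* stayed the more abundant of the pair there (exact permutation p = 0.1, adjusted p = 0.17). *Lat2*, which encodes the LAT-related adaptor NTAL, was likewise at 0 in CD8+ T cells and had 15403, 19935 and 21958 counts in NK cells. *Lat* exceeded it at least 8348-fold in each CD8+ T cell library, whereas the ratio was 1.04, 0.773 and 0.737 in NK cells (exact permutation p = 0.1, adjusted p = 0.17). *Lat2* shares 952 of its 1834 exon bases with *Rfc2*, and per kilobase of the bases that no other gene shares, a setting added after seeing the data, the ratio was 0.502, 0.372 and 0.354 in NK cells and at least 4014 in CD8+ T cells. The size of the ratio in NK cells thus depends on the annotation.

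The ζ chain met a far larger amount of its NK cell counterpart. *Fcer1g*, the FcεRI γ chain that pairs with ζ or replaces it, had 117, 456 and 2 raw counts in CD8+ T cells, against 297389, 401504 and 404854 in NK cells. The *Cd247* to *Fcer1g* ratio per kilobase was 27.1, 6.05 and 2194 in CD8+ T cells, against 0.00892, 0.00763 and 0.00672 in NK cells, so that the order of the pair was opposite in the 2 cell types in every library (exact permutation p = 0.1, adjusted p = 0.17). With the unshared exon bases of *Cd247* alone the ratio was 19.2 to 6972 in CD8+ T cells, against 0.0214 to 0.0283 in NK cells, which leaves that order as it was. The *Lck* to *Fyn* ratio, *Fyn* being the other Src family kinase of T cells, was 79.7, 29.7 and 46.7 in CD8+ T cells, against 30.7, 32.5 and 29.6 in NK cells, and the groups overlapped (log2 difference -0.64, exact permutation p = 0.3, adjusted p = 0.3). *Fyn* itself had 2841 ± 868 normalised counts in CD8+ T cells, against 4022 ± 209.8 in NK cells (SD, n = 3) and was not called (log2 fold change 0.50 ± 0.29, adjusted p = 0.29 by edgeR). The *Cd3e* to *Cd247* ratio was 0.162, 0.134 and 0.0664 in CD8+ T cells, against 0.0534, 0.0851 and 0.0428 in NK cells, with overlap (log2 difference -0.96, exact permutation p = 0.2, adjusted p = 0.25).

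**Figure D4:**
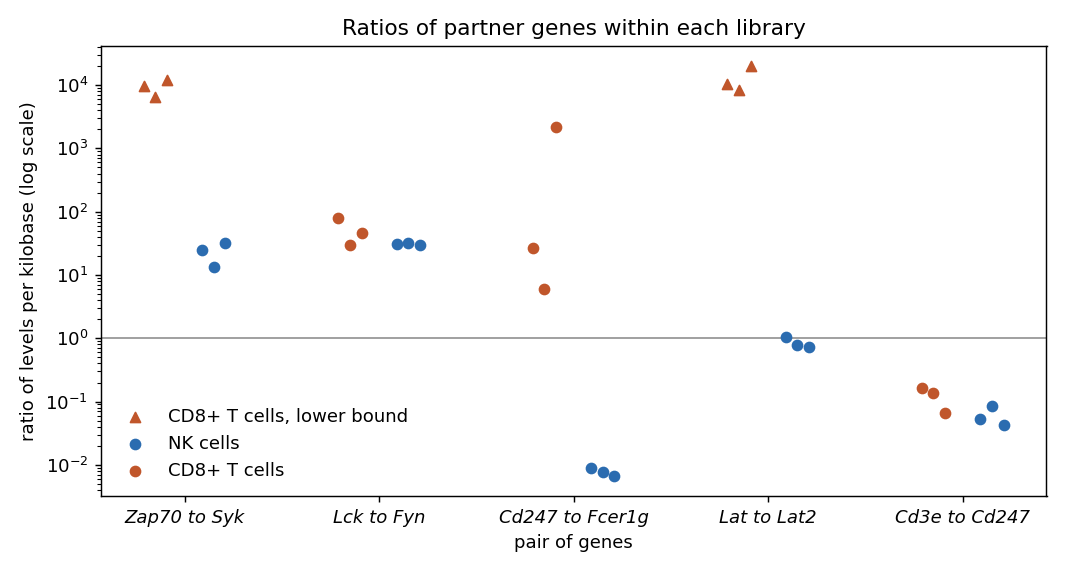
Ratio of 2 partner genes per kilobase of exon within each library on a log axis, CD8+ T cells in orange and NK cells in blue, with triangles for lower bounds where the partner had 0 counts and a line at a ratio of 1. Lengths are those of all exon bases. The NK cell points of *Lat* to *Lat2* lie from 0.737 to 1.04 and would lie from 0.354 to 0.502 with the bases that no other gene shares, and those of *Cd247* to *Fcer1g* lie below it while the CD8+ T cell points lie above it.

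The wider pathway was split between the cell types. Of 53 other genes of T cell receptor signalling, 52 were tested, 8 were called higher in CD8+ T cells (against 5.14% of all genes tested), 7 higher in NK cells (against 6.24% of all genes tested) and 37 were not called. The libraries of 37 of the 52 did not overlap between groups, beside 41.6% of all genes tested, and the median log2 fold change was 0.30, against 0.10. Among 6 receptor constant regions tested, *Trac* and *Trbc2* were higher in CD8+ T cells and *Trdc* was higher in NK cells, and *Tcrg-C1* was too low to be tested. *Trac* had 35312 ± 5689 normalised counts in CD8+ T cells, against 349 ± 42.5 in NK cells (log2 fold change -6.66 ± 0.24, adjusted p = 0.00017 by edgeR). *Trbc2* was at 12.0% of its CD8+ T cell mean in NK cells, but its copy *Trbc1*, at 65.9%, was not called (adjusted p = 0.075 by edgeR), and the split of reads between these near-identical constant regions is uncertain because only uniquely aligned reads were counted.

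Of 6 coreceptors and costimulators, *Cd6* and *Cd5*, which restrain or tune the receptor signal, were the ones called, both higher in CD8+ T cells. *Cd6* had 9902, 5729 and 8684 raw counts in CD8+ T cells and 0 in all NK cell libraries, which made it at least 3388-fold higher. *Cd5* had 1458, 760 and 2304 in CD8+ T cells. Among 5 kinases, *Syk* was at least 416.5-fold higher in NK cells (adjusted p = 0.0048 by edgeR), and the other 4 were not called.

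Of 14 adaptors, *Themis* and *Grap2* were higher in CD8+ T cells, *Lat2* was higher in NK cells and 11 were not called. *Themis*, a T cell adaptor needed in thymic selection, had 5350, 4215 and 3110 raw counts in CD8+ T cells, against 0, 0 and 16 in NK cells. *Grap2* (GADS), which links LAT to SLP-76, was at 33.4% of its CD8+ T cell mean in NK cells (log2 fold change -1.58 ± 0.33, adjusted p = 0.0313 by edgeR), close to the share of *Lat*. Among 8 genes listed as phosphatases or restrainers, not all of which restrain, *Ptprc* and *Dok2* were higher in NK cells. None was higher in CD8+ T cells with edgeR, also at an unadjusted p below 0.05, or with DESeq2. *Ptprc* (CD45), the phosphatase that keeps LCK ready by removing its inhibitory phosphate, had 63528 ± 2951 normalised counts in NK cells and 27983 ± 3879.5 in CD8+ T cells (SD, n = 3), and *Dok2*, an adaptor that dampens kinase signals, was 3.81-fold higher in NK cells (log2 fold change 1.93 ± 0.27, adjusted p = 0.0077 by edgeR).

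Of 9 downstream enzymes and factors, *Prkcq* (protein kinase Cθ) and *Rasgrp1* (a Ras activator) were higher in CD8+ T cells, at 46.0% and 46.2% of their CD8+ T cell means in NK cells, and *Nfatc1* was 7.57-fold higher in NK cells. The adaptors *Fcer1g*, *Tyrobp* and *Hcst* and the Fc receptor chain *Fcgr3* (CD16) had higher values in every NK cell library, but *Fcer1g* alone was called (adjusted p = 0.0165 by edgeR), and *Tyrobp*, with 0, 544 and 0 raw counts in CD8+ T cells against 270220, 332413 and 318804 in NK cells, just missed the threshold (adjusted p = 0.054 by edgeR). *Fcgr3* had 0, 128 and 0 raw counts in CD8+ T cells. *Tyrobp*, *Hcst* and *Fcgr3* were each called in 2 of 9 alternatives, 1 of which left out a library. Some of the calls made by edgeR on all libraries were lost under an alternative. *Grap2* was not called when any library except CD8+ T cell library 1 was left out (adjusted p from 0.0582 to 0.138), *Rasgrp1* when any except CD8+ T cell library 2 was left out (0.0647 to 0.153) and with no filter on low counts (0.0546), and *Nfatc1* when any except CD8+ T cell library 3 was left out (0.0689 to 0.141). *Fcer1g* lost its call without any of the NK cell libraries (adjusted p from 0.0596 to 0.0631) and *Prkcq* without NK cell library 1 (0.103) or library 3 (0.0963). The other 10 called genes of the pathway were called in each alternative.

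**Figure D5:**
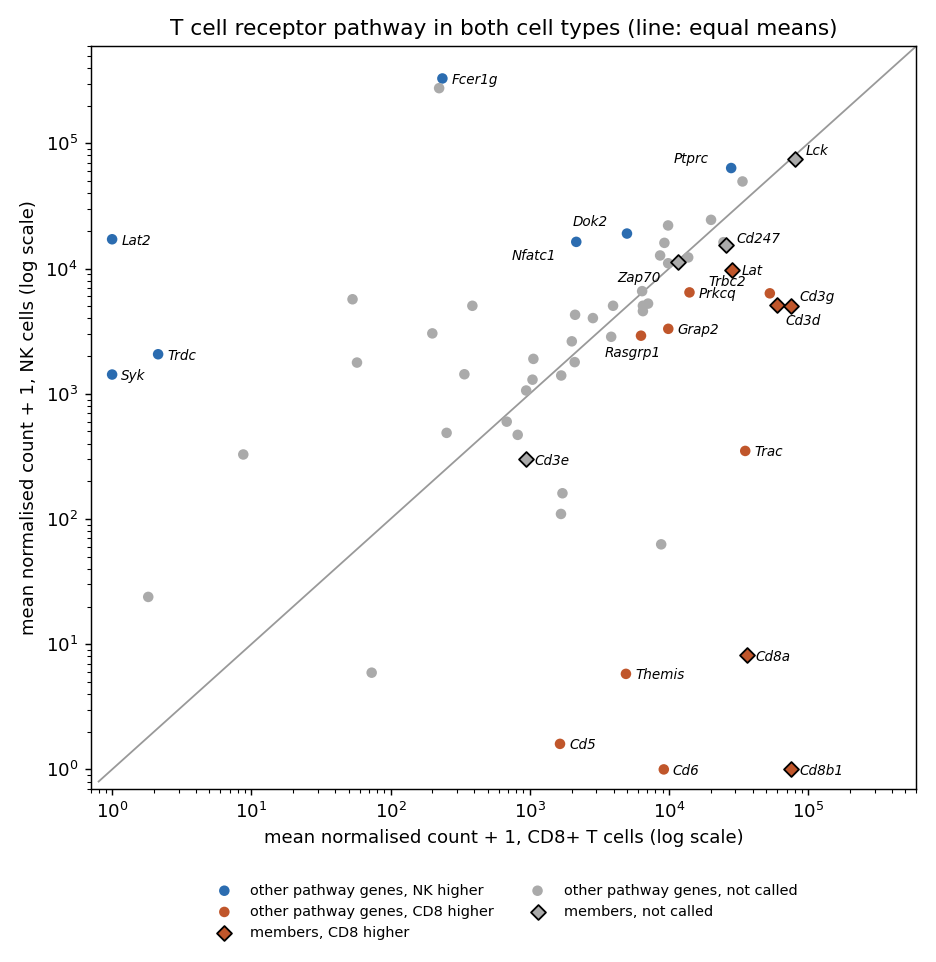
Mean normalised count plus 1 in CD8+ T cells against NK cells on log axes for the 9 members (diamonds) and the 52 other pathway genes tested (circles), coloured by the edgeR call, with a line at equal means. *Lck* and *Zap70* lie on the line, the coreceptor chains *Cd8a* and *Cd8b1* lie at the bottom right, and *Syk* and *Lat2* lie on the left edge at 0 counts in CD8+ T cells.

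Genes outside the set were ranked by likeness to its chains, with all members left out of both rankings. The genes whose pattern over the 6 libraries was most like the mean of *Cd3d*, *Cd3e* and *Cd3g*, by the mean absolute difference of centred log2(normalised count + 1), were *Eif4a1* at 0.13, *Ms4a6b* at 0.13, *Lef1* at 0.13, *Gm6139* at 0.15 and *Ppp2r1b* at 0.15. *Lef1*, a transcription factor of naïve T cells, had 17758, 16424 and 16793 raw counts in CD8+ T cells, against 1800, 2897 and 2405 in NK cells. *Gm6139* had at most 37 counts in a library, so its place is loose. For *Cd247* the nearest genes were *Tcea1* at 0.07, *Gm4366* at 0.07, *Hpcal1* at 0.08, *Arf1* at 0.08 and *Aamp* at 0.08, with adjusted p from 0.076 to 0.73 between the cell types by edgeR.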

How the data were processed

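RNA from FACS-purified cells (500 pg per library) was amplified by the Smart-seq2 protocol and sequenced as 50 bp single-end reads. After trimming (Trimmomatic 0.32) and alignment to mm10 (STAR 2.7.1), the authors counted reads that aligned to 1 place and fell in exons (summarizeOverlaps, R 3.2.3, GENCODE Basic GRCm38). Because only reads that aligned to 1 place were counted, near-identical genes can lose reads. The deposited values are these counts without normalisation. Of 104 columns of counts 6 were used and 98 were not; the columns of a group carry numbers that differ from the samples' and were used as libraries 1 to 3. Symbols, positions and exon lengths came from GENCODE M21 (54079 of 54232 IDs matched).

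Counts were compared in R 4.3.3 with edgeR 4.0.16 (TMM, robust quasi-likelihood test, mean normalised count of at least 10, Benjamini-Hochberg adjustment over all genes tested, call at an adjusted p below 0.05). SE are those of the log2 fold change. Ratios used a pseudocount of 0.5 counts, and 3 counts or fewer per library were treated as not detectable. Without molecular identifiers this floor covers counting error only. The test was also run on counts simulated with a common dispersion for all genes and both groups, a setting that need not hold for these data. Other steps used scipy 1.17.1, numpy 2.4.6 and pandas 2.3.3 under Python 3.11.15. Alternatives were RLE normalisation, DESeq2 1.42.0, no filter, each library left out, a pseudocount of 5 and counts not divided by length. Named genes were all members, the 2 genes of each pathway role with the largest called change in each direction, ratio partners and *Tyk2*; others in the text are markers or were named after their values were seen. A few genes of the lists are left out of the counts and values given here. The members and lists were chosen with earlier results of these data known.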

Additional observations from a re-analysis of the deposited data

How the results depend on the processing

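No paired analysis was possible because the NK cell and CD8+ T cell samples share no replicate number and the columns of counts carry other numbers than the samples. The count of members called stayed within 1.5 times of 5 in each alternative (4 to 7), and *Cd3d*, *Cd3g*, *Cd8a* and *Cd8b1* were called in each. With DESeq2, 27 of the other pathway genes (16 higher in NK cells, 11 in CD8+ T cells) and 3729 genes in all were called, against 15 and 1600 with edgeR. Without 1 library, the count over all genes ranged from 476 to 1946, being 482, 485 and 476 without NK cell libraries 1, 2 and 3. The cause was not tested. Among genes that were not called, the log2 fold change changed sign for *Zap70* with RLE (0.014) and DESeq2 (0.014) and, over left-out libraries, ranged from -0.18 to 0.059 for *Zap70*, -0.21 to 0.011 for *Lck*, -0.75 to 0.72 for *Nck1*, -0.072 to 0.14 for *Vav1*, -0.090 to 0.37 for *Fyb*, -0.35 to 0.32 for *Ptpn6*, -0.13 to 1.00 for *Cblb*, -0.77 to 1.06 for *Bcl10* and -0.63 to 0.50 for *Nfatc2*. The ratios kept their direction in each alternative, and with 3 libraries a group the exact permutation test cannot fall below 0.1. Where all libraries of a group were at 0, a fold is a lower bound set by depth.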

Other observations

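Several pathway genes that edgeR did not call had no overlap between the cell types, and they are named here after their values were seen. *Plcg1*, the phospholipase that gathers on LAT in T cells, had 741, 893 and 3253 raw counts in CD8+ T cells, against 78, 106 and 349 in NK cells (log2 fold change -3.43 ± 0.87, adjusted p = 0.053 by edgeR and 0.000303 by DESeq2). *Plcg2*, its relative used by B cells and NK cells, had 2736, 4596 and 2884 raw counts in NK cells, whereas CD8+ T cell library 2 held 485 and libraries 1 and 3 held 0 and 1 (adjusted p = 0.26 by edgeR and 0.21 by DESeq2). It was called in 1 of 9 alternatives, an edgeR run with 1 library left out (adjusted p = 0.00219). The transmembrane adaptors *Sit1* and *Trat1*, which restrain or stabilise the T cell receptor, had their higher values in CD8+ T cells. *Sit1* had 6090, 3792 and 14750 raw counts there and 0, 0 and 206 in NK cells, and *Trat1* had 2108, 1308 and 871 there and 198, 8 and 141 in NK cells (adjusted p = 0.082 and 0.079 by edgeR, 0.0389 and 0.00136 by DESeq2). Without NK cell library 3, *Sit1* was called by edgeR (adjusted p = 0.0114). *Lax1*, another adaptor of this kind, went the other way, with 4656, 5538 and 6626 raw counts in NK cells and 403, 536 and 8 in CD8+ T cells (adjusted p = 0.11 by edgeR and 0.00206 by DESeq2, and 0.00524 by edgeR without CD8+ T cell library 3). In *Plcg1*, *Plcg2*, *Sit1*, *Trat1* and *Lax1*, 1 library of a group stood apart from the others of that group.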
